A study of Homo sapiens with 24 samples.

Results

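The CDK inhibitor genes were followed through a bulk RNA-seq experiment on PPC1 cells, a human prostate cancer cell line. The members were taken by gene name, namely CDKN1A, CDKN1B, CDKN1C, CDKN2A, CDKN2B, CDKN2C and CDKN2D, and all 7 were found among the 48162 genes of the deposited count table. The experiment held 4 conditions with 6 libraries each. Untreated parental cells were called UT, and parental cells given 5 µM LCL521 for 5 h before harvest were called UT_LCL. LCL521, spelled LCL-521 in the labels, is a pro-drug that inhibits the lysosomal enzyme acid ceramidase. Polyploid giant cancer cells (PGCC) came from cultures that took an 8 Gy dose on day 2, and were the cells that a 20 micron filter retained at harvest on day 5. PGCC_LCL were irradiated and filtered likewise and received LCL521 before harvest. Radiation and filtration always went together, so their parts in a difference between giant and parental cells cannot be told apart.

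CDK inhibitors are small proteins that hold back the cyclin-dependent kinases, the enzymes that drive a cell from one phase of its cycle to the next. The CIP/KIP family, with p21 (CDKN1A), p27 (CDKN1B) and p57 (CDKN1C), binds complexes of CDKs with cyclins E, A and B and also helps to assemble cyclin D with CDK4 and CDK6. The INK4 family, with p16INK4a (CDKN2A), p15 (CDKN2B), p18 (CDKN2C) and p19 (CDKN2D), binds CDK4 and CDK6 alone and keeps cyclin D away from them. The CDKN2A gene also encodes p14ARF, which restrains the ubiquitin ligase MDM2. Several of these genes are known for their rise in cells that stop dividing after DNA damage or during senescence.

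The libraries held 14835246 to 19906601 counts each, so that 3 counts, taken here as the limit of detection and covering counting error only, equalled 0.150 to 0.208 CPM. CPM is a gene's count scaled to a common library size, here after TMM scaling, which corrects library totals for composition. CPM thus gives a gene's part of the RNA sequenced and not its amount per cell. In such bulk libraries fewer cells of a type and less RNA per cell cannot be told apart. A principal component analysis over all genes placed PGCC and parental libraries apart on the first component (55.9% of the variance). The second component (16.5%) set the 8 libraries of replicates 4 and 5 apart from the other 16. Results for the members are therefore given for all 6 replicates and, where they differed, without replicates 4 and 5 and within them alone. The division was found in these same libraries, so adjusted p values from fits on either side of it are descriptive. Within replicates 4 and 5 alone each condition had 2 libraries. For several partner genes the means of both sets are given, with no test within the sets. The label of a prostate cancer cell was checked on 11 luminal prostate markers, of which 4 exceeded a mean of 1 CPM (KRT8, KRT18, CDH1 and HOXB13) while 4 had no count in any library, KLK3, KLK2 and FOLH1 among them. Their summed level ran from 814 to 1197 CPM in UT and from 688 to 904 CPM in PGCC. Of 5 fibroblast markers, COL1A1 and COL1A2 exceeded 1 CPM, with summed levels of 49.9 to 133 CPM in UT and 79.7 to 206 CPM in PGCC. Of 5 leukocyte markers only PTPRC exceeded 1 CPM, with summed levels of 0.406 to 2.74 CPM in UT and 2.51 to 4.32 CPM in PGCC. Their part in the results was not tested.

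Among the CIP/KIP genes the CDKN1A transcript separated giant from parental cells. CDKN1A (ENSG00000124762) lies on the plus strand of chromosome 6 from 36644305 to 36655116 in hg19, the build of the deposited table, and encodes p21, which binds CDK2 and CDK1 complexes as well as PCNA. Its level was 5.11 CPM at the lowest, 11.6 at the median and 14.4 at the highest in UT, and 52.4, 166 and 187 CPM in PGCC. Every PGCC library lay above every UT library, and in each condition the 2 lowest libraries were those of replicates 4 and 5. The mean rose from 10.2 ± 3.80 CPM (SD, n = 6) to 136 ± 58.8 CPM (SD, n = 6). The edgeR quasi-likelihood fit put the log2 fold change at 3.74 with a standard error (SE) of 0.37, a 13.3-fold rise (95% confidence interval 7.75 to 22.9, Benjamini-Hochberg adjusted p = 2.26e-06). Paired by replicate number the ratio was 8.74 at the lowest and 15.1 at the highest. The log2 fold change was 3.44 within replicates 4 and 5 alone, so that the rise was present on both sides of the division although the levels of the PGCC libraries differed, with means of 173 CPM in replicates 1, 2, 3 and 6 and 60.5 CPM in replicates 4 and 5.

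**Figure D1:**
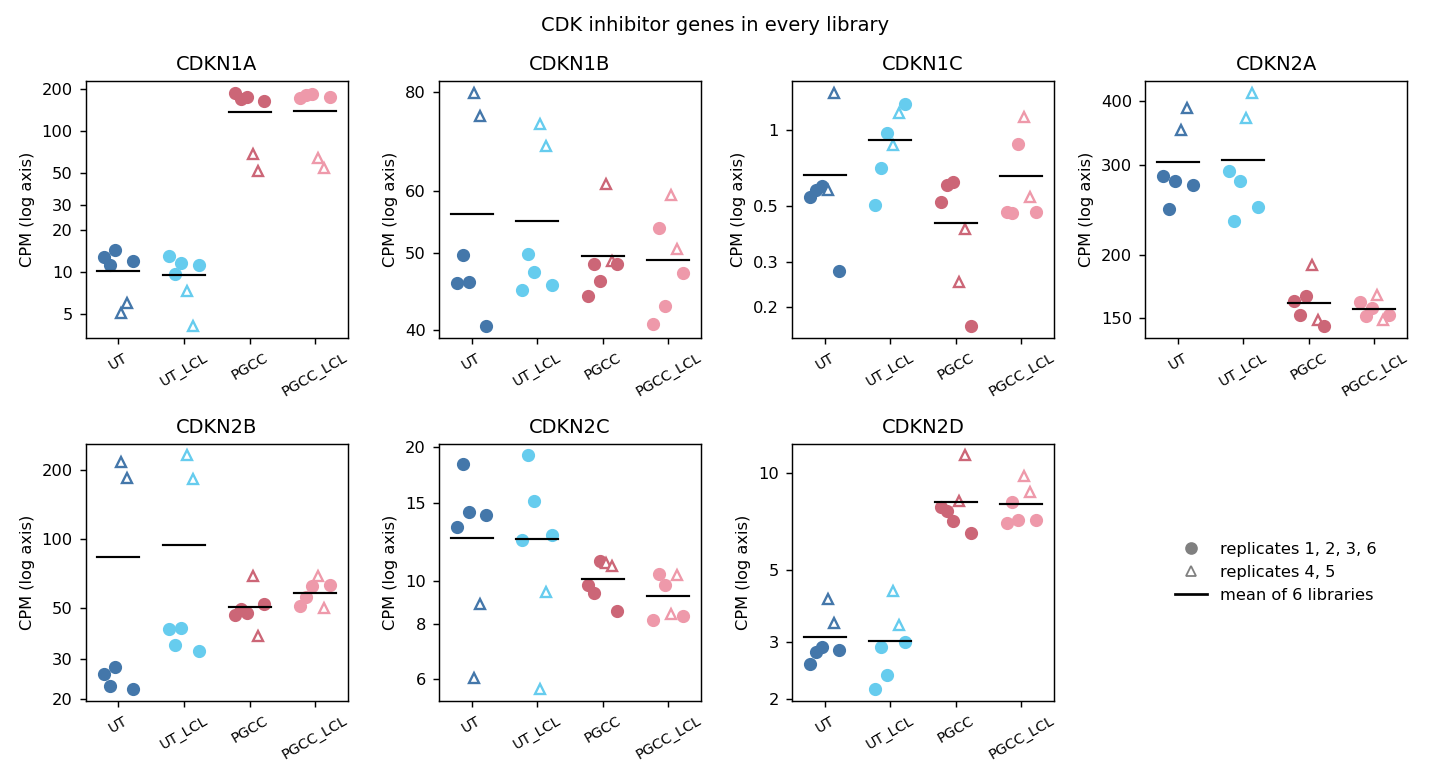
Level of each CDK inhibitor gene in CPM (log axis) in the 6 libraries of UT, UT_LCL, PGCC and PGCC_LCL, with filled circles for replicates 1, 2, 3 and 6, open triangles for replicates 4 and 5, and a black line at the mean of the 6 libraries. The giant cell libraries lie above all parental libraries for CDKN1A and CDKN2D and below them for CDKN2A, while the parental CDKN2B values fall into a low group of 4 replicates and a high group of 2 in each parental condition.

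CDKN1B, the gene of p27 (ENSG00000111276, chromosome 12, plus strand, 12867992 to 12875305), did not pass the test. Its level was 40.4, 47.9 and 79.7 CPM (lowest, median, highest) in UT and 44.2, 48.5 and 61.2 CPM in PGCC. The ranges overlapped, and the 2 highest UT values, 74.6 and 79.7 CPM, belonged to replicates 5 and 4. The log2 fold change was -0.17 (95% confidence interval -0.53 to 0.18, adjusted p = 0.410). It was 0.06 without replicates 4 and 5 (adjusted p = 0.594) and -0.49 within them alone (adjusted p = 0.0103).

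CDKN1C, the imprinted gene of p57 (ENSG00000129757, chromosome 11, minus strand, 2904443 to 2907111), was close to the limit of detection. It had 3 to 24 counts in a library, with 0.277, 0.580 and 1.40 CPM (lowest, median, highest) in UT and 0.167, 0.461 and 0.623 CPM in PGCC. The ranges overlapped. It was removed by the filter on low counts in the comparison of PGCC with UT, so that 6 of the 7 members were tested there. Within replicates 4 and 5 alone it passed the filter through UT, at 10 and 24 counts against 5 and 8 in PGCC. The log2 fold change there was -1.58 (95% confidence interval -2.90 to -0.26, adjusted p = 0.0517). Because only the UT libraries carried the gene past the filter, no fall is read from this value.

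Among the INK4 genes CDKN2A was the most abundant and was lower in giant cells. CDKN2A (ENSG00000147889, chromosome 9, minus strand, 21967751 to 21995300) is counted as 1 gene, so p16INK4a and p14ARF transcripts cannot be told apart in these values. Its level was 246, 283 and 388 CPM (lowest, median, highest) in UT and 145, 158 and 191 CPM in PGCC. No PGCC library reached the lowest UT library, and the 2 highest UT values were those of replicates 4 and 5. The mean fell from 304 ± 54.1 CPM (SD, n = 6) to 161 ± 16.6 CPM (SD, n = 6), with a log2 fold change of -0.91 (SE 0.11, adjusted p = 1.99e-05). The PGCC level was 0.384 to 0.621 of the UT level of the same replicate number. Within replicates 4 and 5 alone the log2 fold change was -1.13 (adjusted p = 1.80e-04).

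CDKN2D, which encodes p19, rose from a low level. The gene (ENSG00000129355, chromosome 19, minus strand, 10677138 to 10679735) had 2.56, 2.86 and 4.06 CPM (lowest, median, highest) in UT and 6.52, 7.73 and 11.3 CPM in PGCC. The lowest PGCC library lay above the highest UT library, at 41 to 70 counts in UT and 114 to 224 in PGCC. The means were 3.09 ± 0.556 and 8.09 ± 1.68 CPM (SD, n = 6 each), a log2 fold change of 1.39 (SE 0.17, 2.62-fold, adjusted p = 1.44e-05). It was 1.41 without replicates 4 and 5 and 1.37 within them.

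The letters in front of the start sites are shown for the 3 genes that separated the cell populations. They are the 250 bases upstream of each RefSeq start in GRCh38.p14, another build than that of the counts, with GC boxes (GGGCGG or its reverse complement CCGCCC, overlaps counted) in capitals. A GC box is the recognition motif of SP1-type factors. For CDKN2A both starts are given, the upstream one belonging to the p14ARF transcript and the downstream one to p16INK4a.
CDKN1A, chr6:36678464-36678713, plus strand: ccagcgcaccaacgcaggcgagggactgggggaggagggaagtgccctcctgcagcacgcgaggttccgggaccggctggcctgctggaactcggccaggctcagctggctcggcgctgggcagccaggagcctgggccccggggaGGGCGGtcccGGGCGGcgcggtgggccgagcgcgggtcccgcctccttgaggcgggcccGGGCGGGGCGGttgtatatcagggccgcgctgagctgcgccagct
CDKN2D, chr19:10568980-10569229, minus strand: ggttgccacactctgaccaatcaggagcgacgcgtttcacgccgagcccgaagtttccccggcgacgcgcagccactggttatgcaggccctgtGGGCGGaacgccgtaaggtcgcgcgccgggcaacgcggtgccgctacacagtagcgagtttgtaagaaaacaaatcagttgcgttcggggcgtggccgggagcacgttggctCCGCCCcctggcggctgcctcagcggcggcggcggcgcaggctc
CDKN2A p14ARF start, chr9:21995325-21995574, minus strand: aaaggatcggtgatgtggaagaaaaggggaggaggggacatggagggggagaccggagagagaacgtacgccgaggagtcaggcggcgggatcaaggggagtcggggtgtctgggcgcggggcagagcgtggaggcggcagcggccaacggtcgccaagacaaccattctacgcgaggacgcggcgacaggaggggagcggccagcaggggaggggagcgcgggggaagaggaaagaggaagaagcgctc
CDKN2A p16INK4a start, chr9:21974858-21975107, minus strand: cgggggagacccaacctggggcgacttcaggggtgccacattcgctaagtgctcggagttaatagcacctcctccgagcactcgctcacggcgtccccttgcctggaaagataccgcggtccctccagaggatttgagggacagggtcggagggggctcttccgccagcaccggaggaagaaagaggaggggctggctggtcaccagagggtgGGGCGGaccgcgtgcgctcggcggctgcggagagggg
The CDKN1A window held 4 GC boxes, that of CDKN2D 2, and the CDKN2A windows 0 and 1. Of 35116 windows of this length over all genes 42.6% held at least 1. RefSeq windows were found for 6 of the 7 members, 9 in all, and 7 of these held a GC box, none the letters TATAAA (10.7% of all windows). Their G and C content ran from 45.6% in a CDKN2C window to 77.2% in another of the same gene, with a median of 58.0% over all windows. These matches describe the letters and were not tested as binding sites.

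CDKN2C, the gene of p18 (ENSG00000123080, chromosome 1, plus strand, 51426417 to 51440305), gave opposite values in the 2 sets of replicates. Its level was 6.03, 13.6 and 18.3 CPM (lowest, median, highest) in UT and 8.53, 10.3 and 11.1 CPM in PGCC. The ranges overlapped, the UT values of replicates 4 and 5 being the lowest of their condition and below their own PGCC values. Over all replicates the log2 fold change was -0.30 (95% confidence interval -0.75 to 0.16, adjusted p = 0.267). It was -0.61 without replicates 4 and 5 (adjusted p = 0.00216), -0.46 without replicate 4 alone (adjusted p = 0.0420), and 0.55 within replicates 4 and 5 (adjusted p = 0.0635).

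CDKN2B showed the widest spread of the 7 genes between parental libraries. It encodes p15, a known target of TGF-beta signalling (ENSG00000147883, chromosome 9, minus strand, 22002902 to 22009362). In UT it stood at 25.9, 22.9, 27.7 and 22.2 CPM in replicates 1, 2, 3 and 6 and at 217 and 185 CPM in replicates 4 and 5. In PGCC the same replicates had 46.9, 49.4, 47.6 and 52.2 CPM and 68.8 and 37.7 CPM. The UT values thus formed a low and a high group with the PGCC values between them. Over all replicates the log2 fold change was -0.73 (95% confidence interval -1.95 to 0.50, adjusted p = 0.314), and with the replicate number as a block it was 0.05 (adjusted p = 0.943). CDKN2B rose by 1.01 on the log2 scale in replicates 1, 2, 3 and 6 (SE 0.10, 2.01-fold, adjusted p = 2.41e-06). Within replicates 4 and 5 it fell by 1.92 on the log2 scale (n = 2 per condition, SE 0.23, adjusted p = 1.60e-04). The PGCC means of the same sets were 49.0 ± 2.34 CPM (SD, n = 4) and 53.3 ± 22.0 CPM (SD, n = 2), closer together than the 24.7 and 201 CPM of UT.

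**Figure D2:**
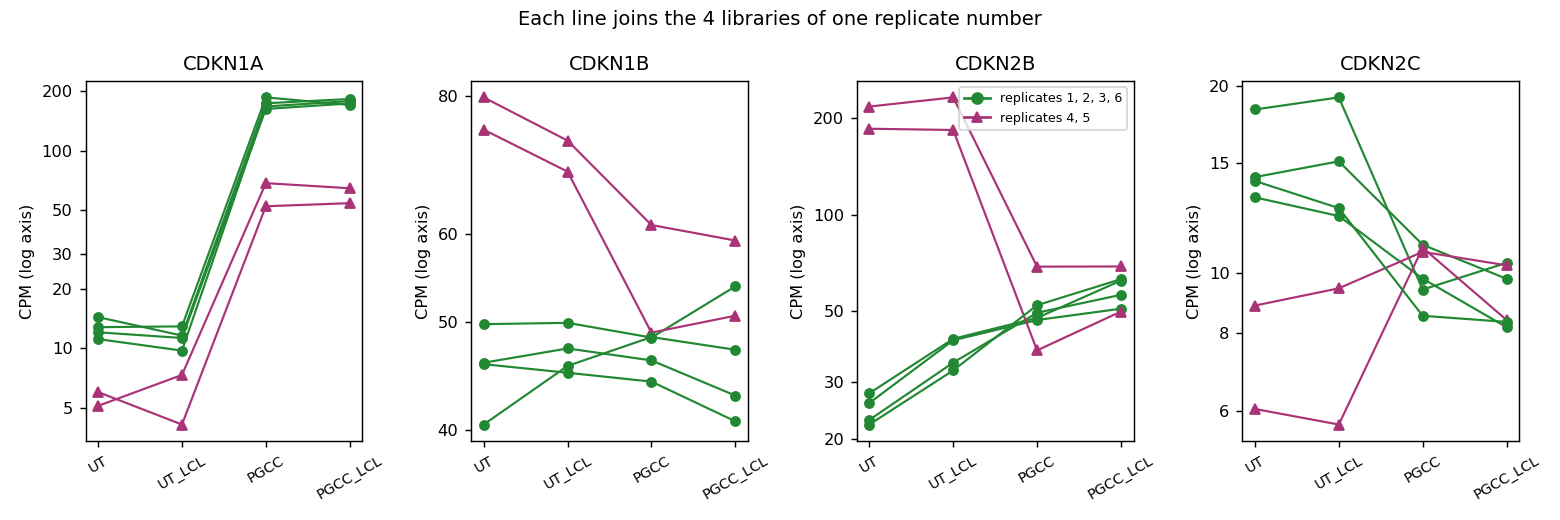
Level in CPM (log axis) of CDKN1A, CDKN1B, CDKN2B and CDKN2C in the 4 conditions, each line joining the libraries of one replicate number, green circles for replicates 1, 2, 3 and 6 and purple triangles for replicates 4 and 5. The CDKN2B lines of replicates 4 and 5 start at 217 and 185 CPM in UT and drop, while the other 4 start between 22.2 and 27.7 CPM and climb, so that all meet between 37.7 and 68.9 CPM in giant cells.

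CDKN2A and CDKN2B are neighbours with related sequence, and the sources used here do not say how reads that match both genes were counted. The antisense RNA gene CDKN2B-AS1 (chromosome 9, plus strand, 21994777 to 22121096) overlaps CDKN2B and the start of CDKN2A, and no use of strand in counting is stated, so reads of the antisense gene and its partners cannot be told apart. Its level was 0.996 ± 0.611 CPM in UT and 1.26 ± 0.303 CPM in PGCC (SD, n = 6 each), with 8 to 41 counts over all 24 libraries. The UT and PGCC means were 0.621 and 1.31 CPM in replicates 1, 2, 3 and 6 and 1.74 and 1.16 CPM in replicates 4 and 5. The other neighbour, MTAP, a purine salvage enzyme often lost together with CDKN2A in tumours, stood at 78.5 ± 3.14 CPM in UT and 65.8 ± 4.20 CPM in PGCC (log2 fold change -0.25, adjusted p = 0.00778). Its UT means were 78.6 CPM in replicates 1, 2, 3 and 6 and 78.1 CPM in replicates 4 and 5.

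Of the 6 members tested, 3 passed an adjusted p of 0.05 between PGCC and UT, CDKN1A and CDKN2D upwards and CDKN2A downwards. Over all 13812 genes tested 47.4% passed, 23.1% upwards and 24.3% downwards. The same 3 members had ranges that did not overlap between the conditions, as did 26.8% of all genes tested (14% higher and 12.8% lower in PGCC). The share of members called was thus close to that of all genes, and with the replicate number as a block 3 of 6 members passed against 56.2% of all genes. In the fit without replicates 4 and 5 the members passing were 5 of the 6 tested, CDKN2C among them, against 54.6% of all genes. In the fit within those replicates 5 of 7 passed, with CDKN1B in place of CDKN2C, against 45.7% of all genes. CDKN2B was called in opposite directions in this pair of fits. With the block and without replicates 4 and 5, 5 members passed against 64.3%.

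Under LCL521 the giant cells were set against parental cells that had received the drug as well, with other libraries on both sides. CDKN1A had 4.11, 10.5 and 12.9 CPM (lowest, median, highest) in UT_LCL and 54.3, 172 and 183 CPM in PGCC_LCL, again without overlap. CDKN2A had 232, 286 and 416 CPM in UT_LCL and 149, 155 and 167 CPM in PGCC_LCL, and CDKN2D had 2.14, 2.94 and 4.30 CPM and 6.97, 7.65 and 9.75 CPM. These 3 genes were again the members whose ranges did not overlap, as for 28.1% of all genes tested (14.4% higher and 13.7% lower in PGCC_LCL). The log2 fold changes were 3.89 for CDKN1A (SE 0.36, adjusted p = 1.07e-06), -0.95 for CDKN2A (SE 0.13, adjusted p = 3.93e-05) and 1.43 for CDKN2D (SE 0.18, adjusted p = 1.68e-05). They were the 3 of 7 members called, against 48.9% of the 13818 genes tested, 25% upwards and 23.9% downwards. The block gave 3 members against 56.3% of all genes. The fits without replicates 4 and 5 and within them gave 5 members each, against 52.5% and 51.4%, and the blocked fit without them gave 5 against 57.5%.

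The other members did not pass under LCL521 over all replicates. CDKN2B stood at 40.5, 34.5, 41.0 and 32.7 CPM in replicates 1, 2, 3 and 6 of UT_LCL and at 232 and 183 CPM in replicates 4 and 5, against 49.8 to 68.9 CPM in PGCC_LCL. The parental libraries of replicates 4 and 5 again lay far above the rest. The log2 fold change of CDKN2B was -0.67 over all replicates (adjusted p = 0.256), 0.68 without replicates 4 and 5 (adjusted p = 1.55e-04) and -1.80 within them (adjusted p = 5.00e-06). That of CDKN2C was -0.40 (adjusted p = 0.146), -0.66 without replicates 4 and 5 (adjusted p = 0.00352), -0.52 without replicate 4 alone (adjusted p = 0.0276) and 0.31 within them (adjusted p = 0.307). CDKN1B gave -0.14 (adjusted p = 0.452) and, within replicates 4 and 5, -0.36 (adjusted p = 0.0178). CDKN1C, tested here, gave -0.45 (95% confidence interval -1.11 to 0.21, adjusted p = 0.242).

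**Figure D3:**
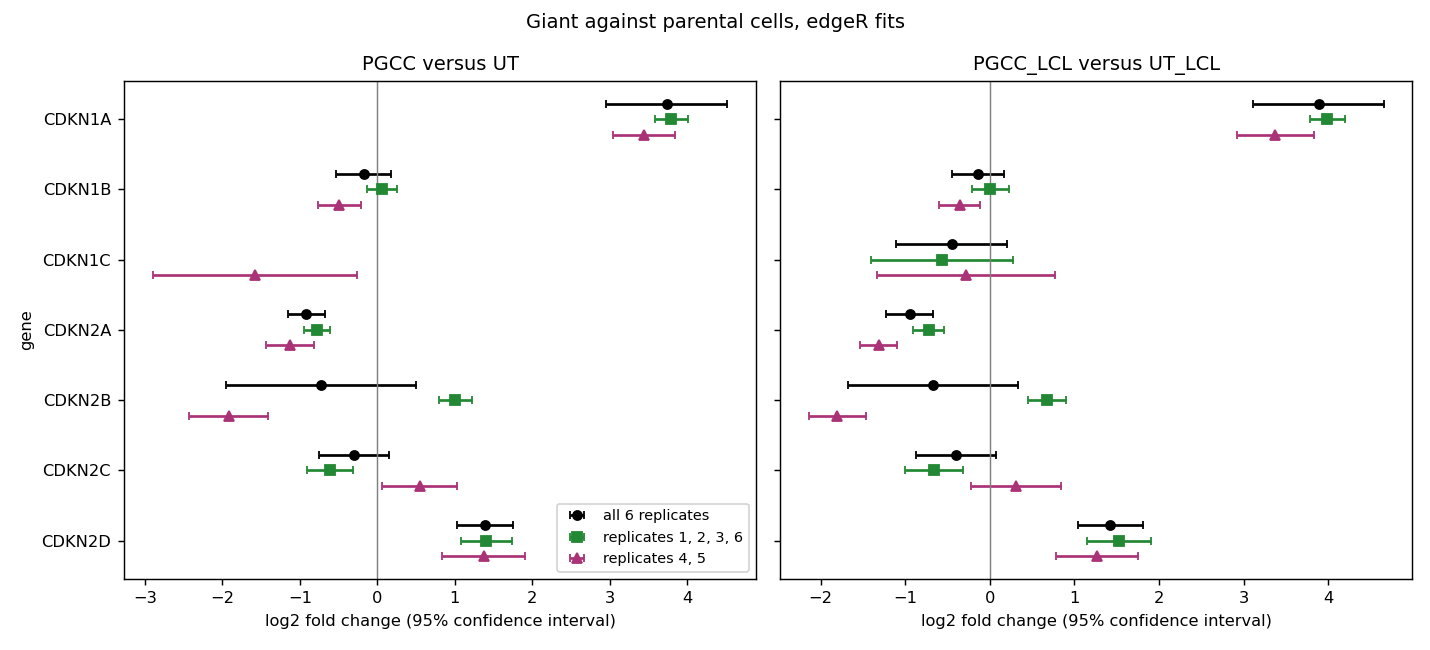
Log2 fold change with its 95% confidence interval from edgeR fits of PGCC versus UT and of PGCC_LCL versus UT_LCL, for all 6 replicates (black circles), replicates 1, 2, 3 and 6 (green squares) and replicates 4 and 5 (purple triangles). CDKN1A, CDKN2A and CDKN2D keep their side of 0 in all fits, and CDKN2B lies to the right of 0 in one set of replicates and to the left in the other.

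The effect of LCL521 was then compared within each cell population, using the same libraries as above, so that these comparisons share samples with the ones already given. In parental cells none of the 7 members passed, and 0 of 13277 genes did in the edgeR test, with 71 at an unadjusted p under 0.05. DESeq2, run without the edgeR filter on low counts, also called 0. The level of CDKN1A in UT_LCL, 9.49 ± 3.26 CPM (SD, n = 6), differed from that in UT by less than the spread between replicates, with a log2 fold change of -0.10 and a 95% confidence interval of -0.75 to 0.55. For CDKN2A the change was 0.02 (-0.32 to 0.35), for CDKN1B -0.03 (-0.44 to 0.39), for CDKN2C 0.00 (-0.63 to 0.63) and for CDKN2D -0.03 (-0.46 to 0.39). CDKN1C gave 0.46 (-0.29 to 1.21) at 4 to 24 counts in a library. These intervals include the spread between replicates. With the replicate number as a block they were narrower, at -0.32 to 0.13 for CDKN1A and -0.07 to 0.09 for CDKN2A. The blocked intervals were -0.11 to 0.10 for CDKN1B, -0.15 to 0.15 for CDKN2C and -0.31 to 0.22 for CDKN2D. The ranges of the 2 conditions overlapped for every member, and did not for 0.0226% of all genes tested.

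For CDKN2B the libraries paired by replicate number gave values that the unpaired comparison did not show. In parental cells the UT_LCL level was 1.57, 1.51, 1.48 and 1.47 times the UT level in replicates 1, 2, 3 and 6, and 1.07 and 0.991 times in replicates 4 and 5. It was higher in 5 of 6 pairs. Without the pairing the log2 fold change was 0.17 (adjusted p close to 1). With the replicate number as a block it was 0.36 (SE 0.08, adjusted p = 0.0550), short of the threshold that 0.866% of all genes passed. The blocked fit gave 0.60 (SE 0.06, adjusted p = 0.0136), when replicates 4 and 5 were left out, where 0.0227% of all genes (3 of 13240) passed.

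In giant cells CDKN2B was higher in PGCC_LCL than in PGCC in 6 of 6 pairs, by ratios of 1.00 to 1.32. The levels were 37.7, 48.5 and 68.8 CPM (lowest, median, highest) in PGCC and 49.8, 59.2 and 68.9 CPM in PGCC_LCL, with overlap. Without the pairing the log2 fold change was 0.22 (95% confidence interval -0.05 to 0.48, adjusted p close to 1), and no member passed. No member had ranges free of overlap, against 0.0848% of all genes (0.0707% with the drug group higher). With the block it was 0.23 (SE 0.05, adjusted p = 0.0141), the only member among the 1.65% of genes called. The blocked value was 0.24 when replicates 4 and 5 were left out (adjusted p = 0.0283), where 0.91% of all genes passed. Over all genes the unblocked test called 1 of 14151 (0.00707%), INSIG1, a regulator of cholesterol synthesis named here because it was the only call. DESeq2, run without the edgeR filter, called 4, and 218 genes had an unadjusted p under 0.05 in the edgeR test.

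The other members tested did not pass in giant cells under LCL521. The log2 fold change was 0.03 for CDKN1A (95% confidence interval -0.74 to 0.79), -0.01 for CDKN1B (-0.23 to 0.20), -0.04 for CDKN2A (-0.18 to 0.10), -0.13 for CDKN2C (-0.35 to 0.09) and -0.02 for CDKN2D (-0.31 to 0.27). These intervals include the spread between replicates. With the replicate number as a block they were -0.06 to 0.10 for CDKN1A, -0.11 to 0.08 for CDKN1B and -0.11 to 0.04 for CDKN2A. For CDKN2C the blocked interval was -0.30 to 0.04 and for CDKN2D -0.21 to 0.18. An interaction term over all 24 libraries asked whether the difference between giant and parental cells depended on the drug. None of the 7 members and 0 of 14555 genes passed in the edgeR test, with 60 at an unadjusted p under 0.05. The term was 0.13 for CDKN1A (95% confidence interval -0.91 to 1.17), -0.05 for CDKN2A (-0.41 to 0.31), 0.02 for CDKN2D (-0.46 to 0.50) and 0.04 for CDKN2B (-1.58 to 1.67). The interval of CDKN2B was the widest of the 7, and without replicates 4 and 5 its term was -0.35 (-0.65 to -0.05, adjusted p close to 1).

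To compare levels between genes, CPM were divided by the gene length in the table, giving CPM per kb. On this scale CDKN2A was the highest of the 7 in 24 of 24 libraries, with means of 237 CPM per kb in UT and 125 in PGCC. In giant cells the order was the same in all 12 libraries, PGCC and PGCC_LCL, running from CDKN2A through CDKN1A, CDKN1B, CDKN2B, CDKN2D and CDKN2C to CDKN1C. In UT 4 different orders occurred in 6 libraries, CDKN2B coming second in replicates 4 and 5 and CDKN1B second in the other 4. CDKN1C was last in every library. The CIP/KIP genes held 9.02% ± 0.817 of the summed CPM per kb in UT and 34.3% ± 8.52 in PGCC (SD, n = 6 each), the INK4 genes the remainder. The part of CDKN1A alone was 1.71% ± 0.833 in UT and 25.9% ± 9.91 in PGCC. In PGCC it stood at 32.2% in replicates 1, 2, 3 and 6 and at 13.1% in replicates 4 and 5. Under LCL521 the shares differed from these by less than the spread between replicates, at 8.85% ± 1.29 for the CIP/KIP genes in UT_LCL and 34.7% ± 8.12 in PGCC_LCL.

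**Figure D4:**
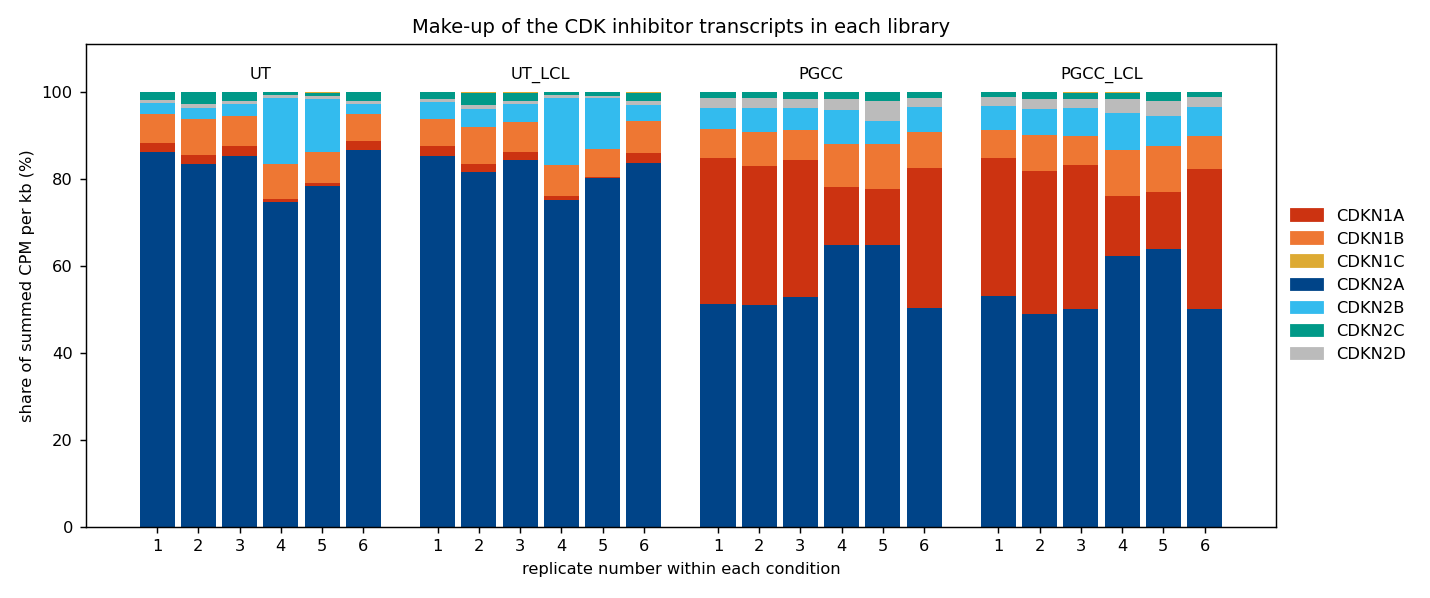
Share of each CDK inhibitor gene in the summed CPM per kb of the 7 genes, 1 stacked bar per library, grouped by condition and numbered by replicate. CDKN2A takes the largest part of every bar, CDKN1A widens in the 12 giant cell libraries, and CDKN2B is wide in replicates 4 and 5 of both parental conditions.

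The order of the conditions for each gene, with neighbours that differed beyond their spread, gave a single step for 3 genes. For CDKN1A the order of the means from the highest was PGCC_LCL (138 ± 60.8 CPM), PGCC, UT and UT_LCL. For CDKN2D it was PGCC, PGCC_LCL (7.98 ± 1.11 CPM), UT and UT_LCL (3.01 ± 0.772 CPM). For CDKN2A it was UT_LCL (307 ± 72.1 CPM), UT, PGCC and PGCC_LCL (156 ± 6.72 CPM). In each only the step between parental and giant cells exceeded the larger SD of the neighbouring conditions (n = 6). For CDKN1B, CDKN1C, CDKN2B and CDKN2C no neighbouring conditions differed by more than that SD. Their 4 means were 56.1, 54.9, 49.6 and 49.1 CPM for CDKN1B and 12.5, 12.4, 10.1 and 9.22 CPM for CDKN2C in UT, UT_LCL, PGCC and PGCC_LCL. Those of CDKN2B were 83.5, 94.0, 50.4 and 58.5 CPM, with SDs of 91.7 and 89.4 CPM in the parental conditions.

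The targets of the inhibitors moved in their own ways. The counts of calls stand beside 47.4% of all genes called in this comparison, 23.1% upwards and 24.3% downwards. Of 4 INK4 partners tested, CDK6 rose (log2 fold change 0.61, adjusted p = 0.00201) and CDK4 fell (-0.59, adjusted p = 7.02e-05) in PGCC, while CCND1 and CCND3, the cyclins D1 and D3 that activate them, stood at 488 and 67.3 CPM in UT and at 387 and 78.5 CPM in PGCC without a call. With the replicate number as a block CCND1 was called (adjusted p = 0.0122). The CCND3 means went from 86.2 CPM in UT to 78.0 CPM in PGCC in replicates 1, 2, 3 and 6 and from 29.5 to 79.6 CPM in replicates 4 and 5. CCND2 had at most 3 counts in any library. Of 9 CIP/KIP partners tested 6 rose and 1 fell, with a median log2 fold change of 1.29 against -0.03 over all genes. CDK1, the mitotic kinase, went from 53.4 ± 20.3 to 263 ± 33.5 CPM (SD, n = 6 each; log2 fold change 2.30, adjusted p = 2.55e-06). CDK2, the S phase kinase, rose by 1.29 (adjusted p = 4.42e-05), its means going from 15.7 to 30.1 CPM in replicates 1, 2, 3 and 6 and from 9.25 to 38.7 CPM in replicates 4 and 5. On the log2 scale cyclin A2 (CCNA2) rose by 1.92 and cyclin B2 (CCNB2) by 2.19. Cyclin E1 (CCNE1) went the other way, from 8.49 ± 4.88 to 1.97 ± 0.745 CPM (log2 fold change -2.09, adjusted p = 0.00171). Its means went from 11.6 to 2.07 CPM in replicates 1, 2, 3 and 6 and from 2.33 to 1.79 CPM in replicates 4 and 5. CCNE2 had -0.83 with an adjusted p of 0.238, its UT mean being 21.6 CPM in replicates 1, 2, 3 and 6 and 1.60 CPM in replicates 4 and 5.

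Proliferation genes stood high in the same giant cells. Of 20 tested 19 rose and 1 fell, with a median log2 fold change of 1.75. Over all genes 23.1% were called upwards and 24.3% downwards. RRM2, a subunit of ribonucleotide reductase, rose by 2.74 and the mitotic kinase AURKB by 2.72 on the log2 scale, and MCM6, a subunit of the replicative helicase, fell by 0.40 (adjusted p = 0.0101). Downstream of the CDKs, 8 of 18 genes of the RB family, E2F and DREAM list rose and 3 fell (median 0.47). RB1, the retinoblastoma protein gene, went from 39.6 ± 4.54 to 76.7 ± 7.66 CPM (SD, n = 6 each; log2 fold change 0.96, adjusted p = 2.90e-06). MYBL2 and FOXM1, activators of late cell cycle genes, rose by 3.20 and 2.10, while E2F5 fell by 1.14 and E2F4 by 0.44 on the log2 scale.

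Genes that act on the inhibitors went in both directions, and the counts that follow stand beside the 47.4% of all genes called in this comparison. Of 13 genes of inhibitor turnover 5 rose and 1 fell (median 0.16). The 2 largest rises were CDC20, an activator of the anaphase-promoting complex, at 2.13 and DTL, the substrate receptor that targets p21 for degradation, at 1.60, and CUL4A, the scaffold of the DTL ligase, fell by 0.49. SKP2, the F-box protein that marks p27, had 86.7 ± 36.0 CPM in UT and 67.0 ± 3.72 CPM in PGCC and was not called (-0.36, adjusted p = 0.232). Its means went from 109 to 67.7 CPM in replicates 1, 2, 3 and 6 and from 41.5 to 65.5 CPM in replicates 4 and 5. Of 29 transcriptional regulators 9 rose and 7 fell (median 0.10). ETS1, an activator of CDKN2A, rose by 1.55 (adjusted p = 4.94e-04) and KLF6, an activator of CDKN1A, by 1.46 (adjusted p = 1.99e-06). BMI1, a Polycomb repressor of CDKN2A, fell by 0.94 (adjusted p = 2.66e-05) and MYC, a repressor of CDKN1A and CDKN2B, by 0.89 (adjusted p = 2.63e-04).

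MDM2, the ubiquitin ligase that p14ARF restrains, stood at 49.7 ± 5.82 CPM in UT and 42.6 ± 2.48 CPM in PGCC (SD, n = 6 each) and was not called in the unblocked fit (log2 fold change -0.22, adjusted p = 0.0576), and was called with the replicate block (adjusted p = 0.0269). Of 18 gene neighbours of the members 7 rose and 5 fell (median 0.19), also beside 47.4% of all genes, with APOLD1 next to CDKN1B at 2.17 and SLC44A2 on the CDKN2D side at 0.96 as the largest rises in genes averaging 2 log2 CPM or more, and ATG4D at -0.52 and SRSF3, next to CDKN1A, at -0.45 as the largest falls. Of 10 other genes with CDK inhibitor names 3 rose and 1 fell (median 0.06). CDKN3, a phosphatase of CDKs despite its name, rose by 2.27 (adjusted p = 1.20e-06), CDK5RAP2 by 0.67, and CABLES1 fell by 0.56. Under LCL521 the proliferation list again had 19 rises and 1 fall of 20 between giant and parental cells, and the CIP/KIP partners 6 and 1 of 9. Over all genes 48.9% were called there, 25% upwards and 23.9% downwards. None of the genes of these lists passed the unblocked edgeR test in either comparison of LCL521 with no drug. With the replicate block 3 of 29 regulators were called lower in UT_LCL versus UT, beside 0.866% of all genes called in either direction. In PGCC_LCL versus PGCC the block called 1 regulator higher and 3 lower, and 1 of 20 proliferation genes higher, beside 1.65% of all genes.

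**Figure D5:**
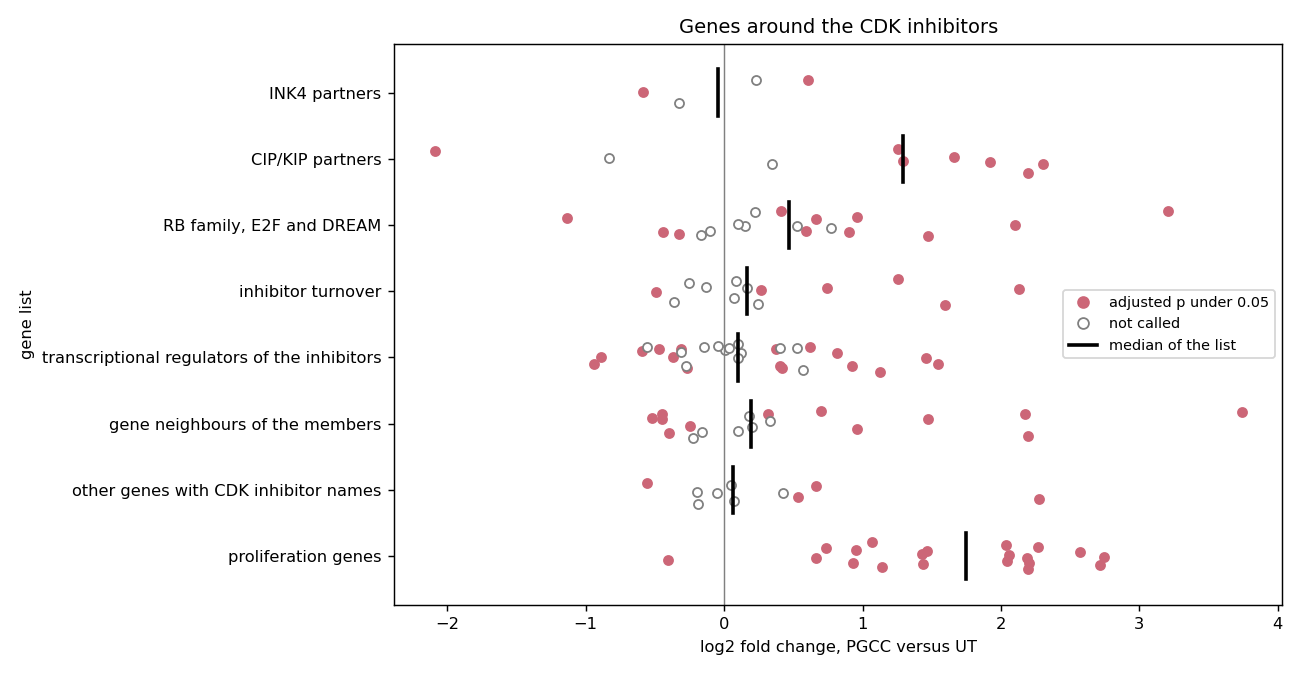
Log2 fold change of PGCC versus UT for the genes of 8 lists around the CDK inhibitors, 1 point per gene tested, filled where the adjusted p was under 0.05, with a black bar at the median of each list. The proliferation genes and CIP/KIP partners lie mostly to the right of 0, with medians of 1.75 and 1.29.

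How the members varied together was described by Pearson's r of log2 CPM over the 24 libraries, which share depth, condition and replicate number. After the condition means were removed the r of CDKN2B was 0.898 with CDKN1B, 0.875 with CDKN2A and -0.865 with CDKN2C. That of CDKN1A was -0.709 with CDKN1B and -0.760 with CDKN2D. Over the same libraries replicates 4 and 5 stood apart in these genes, with CDKN2A, CDKN1B, CDKN2B and CDKN2D higher and CDKN1A and CDKN2C lower in the parental libraries of replicates 4 and 5. The means in UT were 271 CPM in replicates 1, 2, 3 and 6 against 370 CPM in replicates 4 and 5 for CDKN2A, 45.5 against 77.1 CPM for CDKN1B, 2.77 against 3.75 CPM for CDKN2D, 12.6 against 5.55 CPM for CDKN1A and 14.96 against 7.44 CPM for CDKN2C.

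For each member with at least 10 counts in every library the most similar of 10652 genes were looked up in the same way. By level, the first 2 were B4GALT5 (0.983) and SLIT2 (0.982) for CDKN1A, ZNF766 (0.938) and ETV5 (0.932) for CDKN1B, and LONP1 (0.987) and UBXN6 (0.986) for CDKN2A. They were NUPR1 (0.977) and ERN1 (0.966) for CDKN2B, UNG (0.929) and DCTPP1 (0.886) for CDKN2C, and FAM72D (0.981) and RTKN2 (0.974) for CDKN2D. By deviation from the condition means, which leaves out the difference between giant and parental cells, they were PDGFB (0.9751) and EXT1 (0.969) for CDKN1A, NCOA7 (0.952) and KLHL9 (0.949) for CDKN1B, and TRIB3 (0.956) and DNASE2 (0.954) for CDKN2A. For CDKN2B they were CHAC1 (0.987) and SESN2 (0.986), for CDKN2C PRADC1 (0.939) and RFC2 (0.936), and for CDKN2D SMARCC2 (0.906) and DGKA (0.884). Among these first 2 genes of each measure none appeared under more than 1 member, from which no separate pattern of the members is read.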

How the data were processed

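RNA-seq libraries of PPC1 cells were sequenced for 4 conditions of 6 replicates. The deposited table holds raw counts per gene, which the authors obtained with STAR and HTSeq on hg19, the build that the submitters' processing notes name, and, per the file headers, a gene length. No column of another sample was present, and library totals are given with the results. The 7 members and all gene lists were chosen with earlier results of these data known. Groups followed the labels. Genes passed a filter of 10 counts (15 in total) in edgeR 4.0.16 under R 4.3.3, and each comparison was fitted on its own 12 libraries with TMM factors, quasi-likelihood tests, Benjamini-Hochberg adjustment over all genes tested and a threshold of 0.05. The interaction used all 24. Log2 CPM carried a prior count of 2. Scripts were tested on simulated data. Alternatives were DESeq2 1.42.0, limma 3.58.1 (voom), other scalings and filters, 1 joint fit, the replicate block, each replicate left out, and replicates 4 and 5 left out or alone.

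All 4 conditions were harvested in parallel in each of 6 experiments. Same-numbered libraries deviated together in all 36 cases (r of 0.155 to 0.814, median 0.387, against a median of -0.048 for different numbers). The own number was the best match in 27 of 36 cases. Every exception lay between a parental and a giant cell condition, where the pairing is thus less certain. On this basis the numbers were taken to pair the samples.

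Genes named were the members, fixed CDKs, cyclins and neighbours, the 2 largest rises and falls of each list (averaging 2 log2 CPM or more) in PGCC versus UT, and the 2 genes most like each member. Symbols on more than 1 row used the row with the most counts. Promoter windows are from RefSeq. Some genes and sequences chosen by this rule are not reported here.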

Additional observations from a re-analysis of the deposited data

Results flagged for a closer look

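In each gene and condition the gap between the highest or the lowest library and its nearest neighbour was compared with the range of the 6 libraries. The gap exceeded the 95% critical value of 0.625 in 3 of 28 groups, while chance gives about 1 in 20 for independent groups. These groups share libraries, so the count is not read as an excess. The gap cannot flag libraries that stand apart together, such as replicates 4 and 5 for CDKN2B in UT. CDKN1B in PGCC had its highest library, replicate 4, at 61.17 CPM (gap 0.721 of the range). CDKN1C in UT had its highest library, replicate 5, at 1.398 CPM (gap 0.710 of the range), a value from 24 counts. CDKN2D in PGCC had its highest library, replicate 5, at 11.31 CPM (gap 0.656 of the range). Each of these libraries belongs to the replicates 4 and 5 that stood apart over all genes.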

How the results depend on the processing

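The calls of CDKN1A, CDKN2A and CDKN2D between giant and parental cells kept their direction and side of the threshold under every alternative that could be fitted. In PGCC versus UT, 5 members were called without replicates 4 and 5, 5 with the replicate block as well, and 5 within replicates 4 and 5. Under these 3 settings the log2 fold change was 0.059, 0.060 and -0.49 for CDKN1B, 1.01, 1.01 and -1.92 for CDKN2B and -0.61, -0.60 and 0.55 for CDKN2C. Leaving out each replicate in turn gave -0.46 to -0.14 for CDKN2C, called without replicate 4, and -0.94 to -0.24 for CDKN2B. In PGCC_LCL versus UT_LCL, 5 members were called without replicates 4 and 5, 5 with the replicate block as well, and 5 within replicates 4 and 5. Under these 3 settings the log2 fold change was 0.0065, 0.00079 and -0.36 for CDKN1B, 0.68, 0.68 and -1.80 for CDKN2B and -0.66, -0.65 and 0.31 for CDKN2C. Leaving out each replicate in turn gave -0.52 to -0.28 for CDKN2C, called without replicate 4, and -0.87 to -0.21 for CDKN2B. In PGCC versus UT CDKN2B was 0.0045 with limma-voom and 0.050 with the replicate block. The cause of these shifts was not tested.

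With the replicate number as a block, which pairs the libraries of one experiment, 115 genes were called in UT_LCL versus UT, and 3 (1 member, CDKN2B) when replicates 4 and 5 were also left out. In PGCC_LCL versus PGCC the block called 234 genes, 1 of them a member, and 129 genes with 1 member without replicates 4 and 5. DESeq2 called 4 there, limma-voom 0, 1 fit of all 24 libraries 0, the libraries without replicates 4 and 5 0 and those alone 0. Leaving out each replicate gave 0 to 1. Beside the results named, the block changed no call of a member.

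Log2 values of uncalled members that crossed 0 were small in most cases. For UT_LCL versus UT the values were 0.057 for CDKN1B, -0.034 for CDKN2A and -0.0030 for CDKN2C without replicates 4 and 5, 0.059 for CDKN1B, -0.037 for CDKN2A and -0.0088 for CDKN2C without replicates 4 and 5 under the replicate block, 0.043 for CDKN1A and 0.033 for CDKN2D within replicates 4 and 5. They were -0.0020 for CDKN2C with the replicate block, -0.0053 for CDKN2C with limma-voom, -0.0017 for CDKN2C with DESeq2, -0.0055 for CDKN2C in the joint fit. Leaving out each replicate gave -0.061 to 0.0046 for CDKN1B, -0.0047 to 0.038 for CDKN2A, -0.023 to 0.027 for CDKN2C and -0.068 to 0.0066 for CDKN2D. For PGCC_LCL versus PGCC the values were 0.014 for CDKN2D without replicates 4 and 5, 0.013 for CDKN2D without replicates 4 and 5 under the replicate block, -0.013 for CDKN1A and 0.0094 for CDKN1B within replicates 4 and 5. Leaving out each replicate gave -0.044 to 0.011 for CDKN1B and -0.081 to 0.076 for CDKN2D. For the interaction the values were -0.070 for CDKN1B, -0.50 for CDKN1C, 0.034 for CDKN2A and -0.35 for CDKN2B without replicates 4 and 5, -0.074 for CDKN1B, -0.51 for CDKN1C, 0.038 for CDKN2A and -0.35 for CDKN2B without replicates 4 and 5 under the replicate block, -0.052 for CDKN1A and -0.093 for CDKN2D within replicates 4 and 5. They were -0.052 for CDKN2B with the replicate block, -0.0091 for CDKN1B and -0.17 for CDKN2B with limma-voom, -0.0026 for CDKN2D with library totals. Leaving out each replicate gave -0.022 to 0.053 for CDKN1B, -0.13 to 0.36 for CDKN1C, -0.085 to 0.094 for CDKN2B and -0.029 to 0.11 for CDKN2D. 

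Depth limits CDKN1C, at 3 to 24 counts, and CDKN2B-AS1, at 8 to 41. The division of the replicates had no label that names it, and only 2 replicates lie on its smaller side.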
